A study of Mus musculus with 6 samples.

Results

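Hepatic iron handling was described here through 10 genes for iron storage, uptake, export and sensing, which were found by their gene names among the 54532 genes of the deposited table. They are the ferritin genes Fth1 and Ftl1, the transferrin gene Trf, the receptor genes Tfrc and Tfr2, the importer gene Slc11a2, the exporter gene Slc40a1, the ferroxidase gene Cp, and the sensing and hormone genes Hfe and Hamp. RNA was sequenced from hepatocytes of Xbp1ΔHep mice (XCKO, 3 libraries), in which Xbp1 was deleted in hepatocytes, and of Xbp1FL/FL mice (XCON, 3 libraries), which carry the floxed alleles. Both groups were C57BL/6 mice aged 32 to 34 weeks that had been on a high-fat diet for 26 weeks. The product of Xbp1 is a transcription factor that responds to unfolded proteins, and the series asked about its part in non-alcoholic steatohepatitis. The sources used here do not give the agent that deletes the floxed alleles, and no label ties a library to a named animal.

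Hepatocytes take up transferrin-bound iron from blood, store it in ferritin and secrete both transferrin and hepcidin, the hormone that binds the iron exporter ferroportin and causes its degradation. The mRNAs of several of these genes carry an iron-responsive element, a hairpin bound by the iron regulatory proteins IRP1 and IRP2 when the cell is short of iron. Binding in a 5′ untranslated region blocks translation, as in the ferritins and ferroportin, whereas binding in the 3′ untranslated region of Tfrc protects the mRNA from decay. Hepcidin transcription follows bone morphogenetic protein (BMP) signals that pass through SMAD proteins, and inflammatory signals that pass through STAT3.

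Such hairpins were searched for in the protein-coding GENCODE M21 transcripts of mm10, on the transcript strand. Those of the members are shown because they have the form of the sites through which iron acts on such mRNAs. The motif was the loop CAGTGN with a last base other than G, flanked by 5 base pairs (G-T allowed), a bulged C before them, and at least 4 of 6 pairs in the lower stem. Of 21877 genes searched, 18 (0.0823%) held a match in an untranslated region, and 4 of the 10 members were among them. Fth1, Ftl1 and Slc40a1 held 1 match each in the 5′ untranslated region and Tfrc held 4 in the 3′ untranslated region. The motif is strict, and a hairpin with other loop letters or pairing would be missed. A member, with or without a match, may therefore carry elements that are not shown. The loop is in capitals.
Fth1, chr19:9982732-9982760, plus strand: ttcctgcttcaaCAGTGCttgaacggaac
Ftl1, chr7:45459779-45459807, minus strand: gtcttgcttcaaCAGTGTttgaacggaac
Slc40a1, chr1:45925465-45925493, minus strand: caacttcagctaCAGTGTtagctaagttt
Tfrc, chr16:32631219-32631247, plus strand: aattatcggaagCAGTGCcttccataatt
Tfrc, chr16:32631598-32631626, plus strand: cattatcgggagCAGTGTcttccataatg
Tfrc, chr16:32631663-32631691, plus strand: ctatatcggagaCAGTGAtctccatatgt
Tfrc, chr16:32631710-32631738, plus strand: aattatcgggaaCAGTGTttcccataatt

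Total counts ran from 26477489 to 27240079 in XCKO and from 23919355 to 26502456 in XCON. Xbp1 was lower in every XCKO library, at 39.3 to 67.4 CPM against 171 to 319 CPM in XCON (log2 fold change −2.24 ± 0.29, SE; adjusted p = 0.0084 by edgeR's quasi-likelihood test). All single-gene adjusted p-values come from that test unless another is named. CPM here means counts on a common scale of TMM-normalized library sizes, and fold changes are XCKO over XCON. The 6 hepatocyte markers (Alb, Ttr, Apoa1, Serpina1a, Tat and Cps1) summed to 79759 to 110348 CPM in XCKO and 59200 to 80063 CPM in XCON. Markers of other cells were present too. Those of Kupffer cells and macrophages (9 genes) summed to 292 to 769 CPM in XCKO and 874 to 1678 CPM in XCON, and erythroid markers (7 genes) to 77.4 to 943 CPM in XCKO and 42.3 to 70.0 CPM in XCON. Stellate markers (6 genes) summed to 84.0 to 204 CPM in XCKO and 181 to 316 CPM in XCON. Of the 6, 2 (Lrat and Pdgfrb) were lower at an adjusted p under 0.05, beside 4.05% of all genes tested. Cholangiocyte markers (4 genes) summed to 5.14 to 12.5 CPM in XCKO and 19.6 to 27 CPM in XCON. Of the 4, 0 passed and all 4 were lower at an unadjusted p under 0.05, beside 15.4% of all genes tested. Endothelial markers (6 genes) summed to 333 to 685 CPM in XCKO and 416 to 433 CPM in XCON. The mitochondrial share of the counts was 8.99% to 13.1% in XCKO, against 22.8% in XCON 1 and 9.30% to 9.79% in XCON 2 and 3.

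Of the 10 iron genes, both transferrin receptor genes, Tfrc and Tfr2, were higher in XCKO, and 8 did not pass the test (adjusted p under 0.05, here named a call). All 10 passed the filter on low counts. These 2 calls among 10 members stand beside 9.27% called among all 14873 genes tested (5.21% called higher and 4.05% called lower). The median log2 fold change of the 10 was 0.29, against −0.05 over all genes tested, with 7 members above 0 and 3 below, which became 5 above and 5 below (median 0.02, against −0.31 over all genes) when counts were scaled by library totals alone. In 6 of the 10 the groups did not overlap in CPM, beside 35.7% of all genes tested. The authors' deposited table likewise had Tfrc and Tfr2 past an adjusted p of 0.05 among the 10, where 10.2% of its genes were past it.

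**Figure D1:**
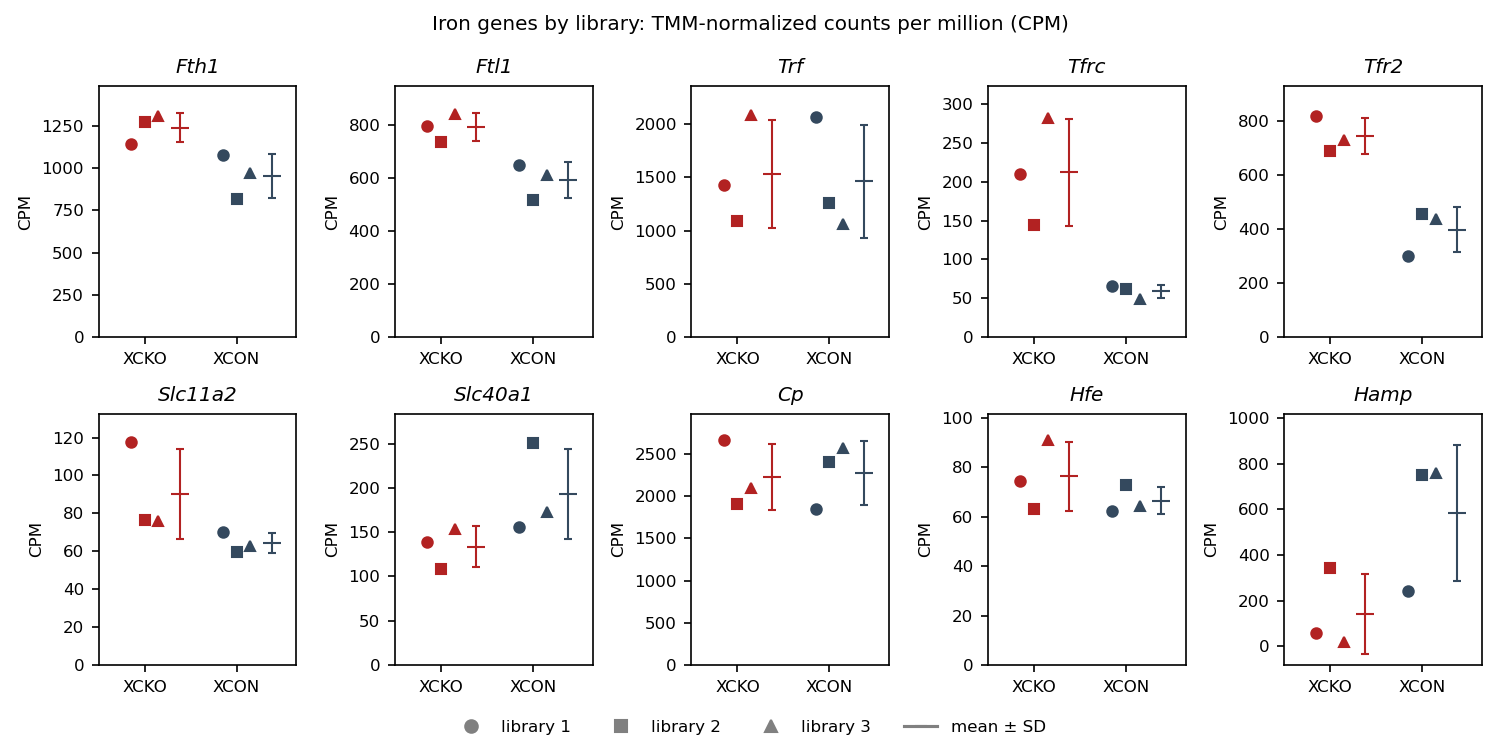
CPM of the 10 iron genes (y axes, linear) in the XCKO and XCON libraries (x axis). Symbols give libraries 1, 2 and 3, and bars the mean ± SD of 3 libraries. Tfrc and Tfr2 lie higher in all XCKO libraries than in any XCON library, whereas Hamp varies 17.5-fold among XCKO libraries.

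Tfrc encodes transferrin receptor 1, which carries iron-loaded transferrin into cells by endocytosis (ENSMUSG00000022797, mm10 chromosome 16, 32608920 to 32632794, plus strand). Its level was 210, 144 and 282 CPM in XCKO 1, 2 and 3, against 65.5, 62.0 and 49.1 CPM in XCON 1, 2 and 3. The lowest XCKO library lay above the highest XCON library. Tfrc averaged 212 ± 69.0 CPM in XCKO and 58.9 ± 8.62 CPM in XCON (SD, n = 3 each). This was a log2 fold change of 1.85 ± 0.25 (SE; 95% interval 1.27 to 2.43), or 3.60-fold (adjusted p = 0.0093). The call held in each of the 17 alternative fits, with a largest adjusted p of 0.045.

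Tfrc is also abundant in red cell precursors, and its order among the XCKO libraries was that of the erythroid markers, which summed to 407, 77.4 and 943 CPM in XCKO 1, 2 and 3. That order was not particular to them. The hepatocyte markers (91276, 79759 and 110348 CPM) and 4 neutrophil markers (28.7, 2.56 and 66.7 CPM) shared it, while the other marker sums were highest in XCKO 1. Of the 7 erythroid markers, 5 were tested and 0 passed. All 5 were higher at an unadjusted p under 0.05, beside 14.3% of all genes tested. The erythroid sum of XCKO 2 was above the highest XCON sum of 70.0 CPM. Most of it came from Alas2, the heme synthesis enzyme of red cell precursors, which had 62.6 CPM in XCKO 2, against 23.5, 34.3 and 56.2 CPM in XCON 1, 2 and 3. Slc4a1, which encodes the anion exchanger of red cells, had 0 reads in XCKO 2. The adult beta globin gene Hbb-bs stood at 9.08 CPM in that library, against 4.44 to 10.7 CPM in XCON. Tfrc in XCKO 2 was 144 CPM, above the XCON range of 49.1 to 65.5 CPM. With XCKO 1 and 3 left out, a setting chosen after seeing the data, the log2 fold change of Tfrc was 1.32 (adjusted p = 0.024). In that fit the lone XCKO library is assumed to vary like the XCON libraries. The part of red cell precursors in the Tfrc values of any library was not tested.

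Tfr2 encodes transferrin receptor 2, a liver-enriched protein that senses transferrin saturation and acts upstream of hepcidin (ENSMUSG00000029716, chromosome 5, 137569840 to 137587481, plus strand). It had 819, 689 and 728 CPM in XCKO 1, 2 and 3, against 301, 454 and 437 CPM in XCON 1, 2 and 3. The groups did not overlap, and XCON 1 was the lowest library. Tfr2 averaged 745 ± 66.9 CPM in XCKO and 398 ± 83.6 CPM in XCON (SD, n = 3 each), a log2 fold change of 0.91 ± 0.21 (SE; 95% interval 0.44 to 1.38), or 1.87-fold (adjusted p = 0.032). The call was less firm than that of Tfrc. It held in 1 of the 6 fits that left out a library (adjusted p = 0.048 without XCKO 2), and was lost without XCON 1 (0.061), XCON 2 (0.053), XCON 3 (0.065), XCKO 1 (0.08) or XCKO 3 (0.083), always with a positive fold change.

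**Figure D2:**
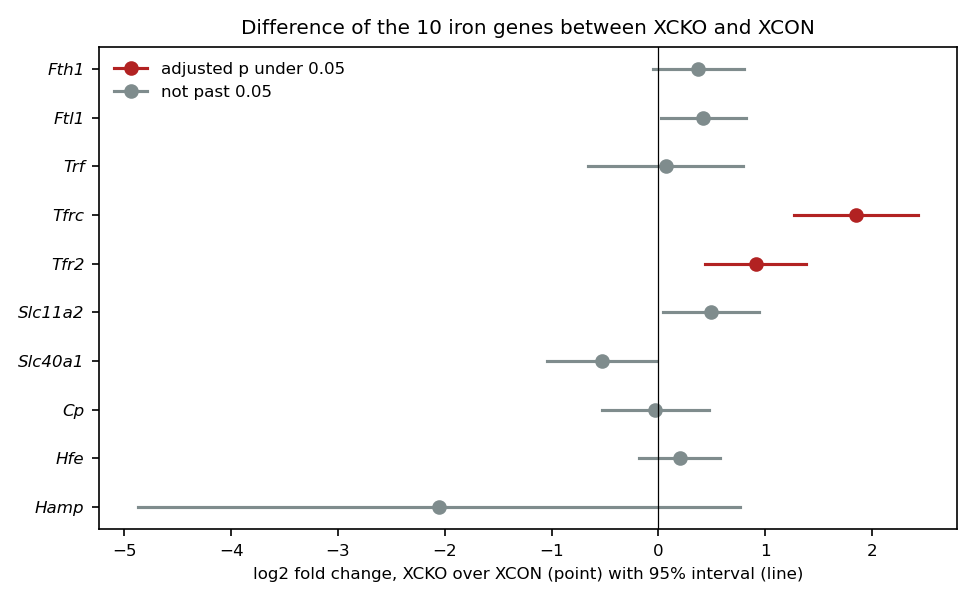
Log2 fold change of each iron gene, XCKO over XCON (x axis), with its 95% interval from edgeR's quasi-likelihood fit. Red points are past an adjusted p of 0.05. Tfrc (1.85) and Tfr2 (0.91) are the 2 past it, and Hamp has an interval from −4.87 to 0.76.

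Per length, Tfr2 was the more abundant receptor mRNA in all 6 libraries. The ratio of Tfr2 to Tfrc in deposited FPKM (fragments scaled by gene length and library size) was 5.57, 6.80 and 3.68 in XCKO 1, 2 and 3, against 6.57, 10.4 and 12.7 in XCON 1, 2 and 3. Apart from XCON 1, the XCON ratios lay above all XCKO ratios, and the groups overlapped. By the rule for genes of like pattern, the 3 genes whose log2 CPM followed Tfrc most closely over the 6 libraries were the processed pseudogene Gm13577 (Pearson r 0.997), Bsg (0.996), which encodes the membrane glycoprotein basigin, and C8g (0.995), which encodes a complement component. Gm13577 had only 15 to 25 reads in the XCKO libraries and 8 to 9 in the XCON libraries, and did not pass (adjusted p = 0.095). These r values are the largest of all genes tested and rest on 6 libraries in 2 groups.

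Hamp encodes hepcidin (ENSMUSG00000050440, chromosome 7, 30942368 to 30944032, minus strand) and was the most variable of the 10. Its level was 58.3, 344 and 19.7 CPM in XCKO 1, 2 and 3, against 241, 749 and 760 CPM in XCON 1, 2 and 3. XCKO 1 and 3 were below every XCON library, while XCKO 2 was above XCON 1, so the groups overlapped. Hamp averaged 141 ± 177 CPM in XCKO and 584 ± 296 CPM in XCON (SD, n = 3 each). The log2 fold change of −2.05 ± 1.13 (SE; 95% interval −4.87 to 0.76) did not pass (adjusted p = 0.29). Without XCKO 2 the value was −3.86 (adjusted p = 0.055), and over 16 alternative fits it ran from −3.86 to −0.74, with adjusted p-values of 0.055 to 0.62.

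The spread of Hamp within groups, an SD of 1.62 on the log2 scale, ranked at the 99.6th percentile of all genes tested, while those of the other 9 members ran from 0.14 (Ftl1) to 0.49 (Trf). In the authors' deposited table Hamp had a log2 fold change of −2.04, no p-value and an adjusted p of 1. Its close relative Hamp2, a mouse paralog with which reads could be shared, had 3.48, 9.70 and 1.12 CPM in XCKO 1, 2 and 3, against 17.2, 3.81 and 2.60 CPM in XCON 1, 2 and 3. XCKO 2 was the highest XCKO library for both genes, but XCON 1, the lowest XCON library for Hamp, was the highest for Hamp2. Hamp2 did not pass either (adjusted p = 0.67).

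The 160 bases before the RefSeq start sites of both genes (GRCm38.p6) are shown because they hold the letters of sites known for BMP and STAT3 control of hepcidin, and show how near the paralogs are to each other.
Hamp, chr7:30944030-30944189, minus strand: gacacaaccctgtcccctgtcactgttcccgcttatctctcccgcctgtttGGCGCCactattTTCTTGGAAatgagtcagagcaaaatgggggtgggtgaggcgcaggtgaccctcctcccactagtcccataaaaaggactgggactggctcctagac
Hamp2, chr7:30924182-30924341, minus strand: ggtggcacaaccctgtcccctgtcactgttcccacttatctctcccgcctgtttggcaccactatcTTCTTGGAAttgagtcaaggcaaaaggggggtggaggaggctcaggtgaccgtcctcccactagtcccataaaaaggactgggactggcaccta
Capitals mark GGCGCC, the core of the BMP response element, and TTCTTGGAA, a STAT site, both searched on both strands. GGCGCC was found in Hamp, starting 109 bases before the start site, and not in this window of Hamp2, where the aligned bases differ by G55A (counted from 1 at the 5′ end of the Hamp sequence). TTCTTGGAA was found in both. Among 32851 RefSeq promoters, 7.35% held GGCGCC and 0.198% held TTCTTGGAA in the same window. The 2 windows were identical at 88.3% of 163 aligned columns. A match is a description of the letters and does not show binding.

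On the TMM scale, the 2 ferritin subunit genes were higher in every XCKO library than in any XCON library, without passing the test. Fth1, the heavy chain with ferroxidase activity (ENSMUSG00000024661, chromosome 19, 9982703 to 9985092, plus strand), had 1142, 1271 and 1306 CPM in XCKO 1, 2 and 3, against 1078, 820 and 970 CPM in XCON 1, 2 and 3. Ftl1, the light chain that aids mineral formation (ENSMUSG00000050708, chromosome 7, 45457944 to 45459884, minus strand), had 795, 736 and 841 CPM in XCKO, against 650, 515 and 611 CPM in XCON. Neither gene's groups overlapped. The log2 fold change of Fth1 was 0.37 ± 0.19 (SE; 95% interval −0.05 to 0.80; adjusted p = 0.21). That of Ftl1 was 0.42 ± 0.18 (SE; 95% interval 0.02 to 0.82; adjusted p = 0.15). With scaling by library totals alone these fell to 0.11 for Fth1 and 0.15 for Ftl1, and with a correction for gene length to 0.12 and 0.20. Per length, the ratio of Fth1 to Ftl1 in FPKM lay between 2.23 and 2.67 in XCKO and between 2.46 and 2.57 in XCON. The annotated copy Ftl1-ps1 (8.85 to 12.5 CPM in XCKO and 6.97 to 9.26 CPM in XCON) may share reads with Ftl1, whose counts are uncertain to that extent.

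Trf encodes transferrin, the iron carrier of plasma that hepatocytes secrete (ENSMUSG00000032554, chromosome 9, 103204001 to 103230444, minus strand). It ran at 1425, 1087 and 2087 CPM in XCKO 1, 2 and 3, against 2069, 1260 and 1063 CPM in XCON 1, 2 and 3. XCKO 3 and XCON 1 were the highest libraries, the groups overlapped, and the log2 fold change was 0.07 ± 0.32 (SE; 95% interval −0.66 to 0.79). Slc11a2 encodes the divalent metal transporter DMT1, which moves iron out of endosomes (ENSMUSG00000023030, chromosome 15, 100387898 to 100425072, minus strand). It had 118, 76.5 and 76.2 CPM in XCKO, against 70.2, 59.9 and 62.6 CPM in XCON. XCKO 1 was the highest library and the groups did not overlap on the TMM scale, but the log2 fold change of 0.49 ± 0.20 (SE) missed the threshold (adjusted p = 0.14). It was 0.23 with scaling by library totals alone (adjusted p = 0.47) and 0.26 without XCKO 1 (adjusted p = 0.36).

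Slc40a1 encodes ferroportin, the iron exporter (ENSMUSG00000025993, chromosome 1, 45908068 to 45926523, minus strand). Its level was 139, 108 and 153 CPM in XCKO 1, 2 and 3, against 156, 251 and 172 CPM in XCON 1, 2 and 3. All XCKO libraries were below all XCON libraries, with XCKO 3 and XCON 1 close to each other. The log2 fold change was −0.53 ± 0.22 (SE; 95% interval −1.04 to −0.02; adjusted p = 0.15). Scaling by library totals alone shifted all genes by a median of −0.26 and gave −0.81 for Slc40a1 (adjusted p = 0.035), while Tfr2 lost its call (0.64, adjusted p = 0.066).

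Ferroportin mRNA is abundant in Kupffer cells, the macrophages of the liver. The lowest library for Slc40a1, XCKO 2, was also the lowest for the macrophage marker sum (292 CPM), and the highest, XCON 2, was the highest for that sum (1678 CPM). The remaining libraries differed in order. Slc40a1 was higher in XCKO 3 than in XCKO 1, where the sums were 758 and 769 CPM. It was also higher in XCON 3 than in XCON 1, where the sums were 874 and 1011 CPM. Of the 9 macrophage markers, 1 (Cd68) was called lower and all 9 had negative log2 fold changes, with a median of −1.07. Over all genes tested, 4.05% were called lower and 7963 of 14873 had negative log2 fold changes. Fewer cells of a type and less RNA per cell cannot be told apart in these bulk libraries, and the part of macrophages in the Slc40a1 values was not tested.

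**Figure D3:**
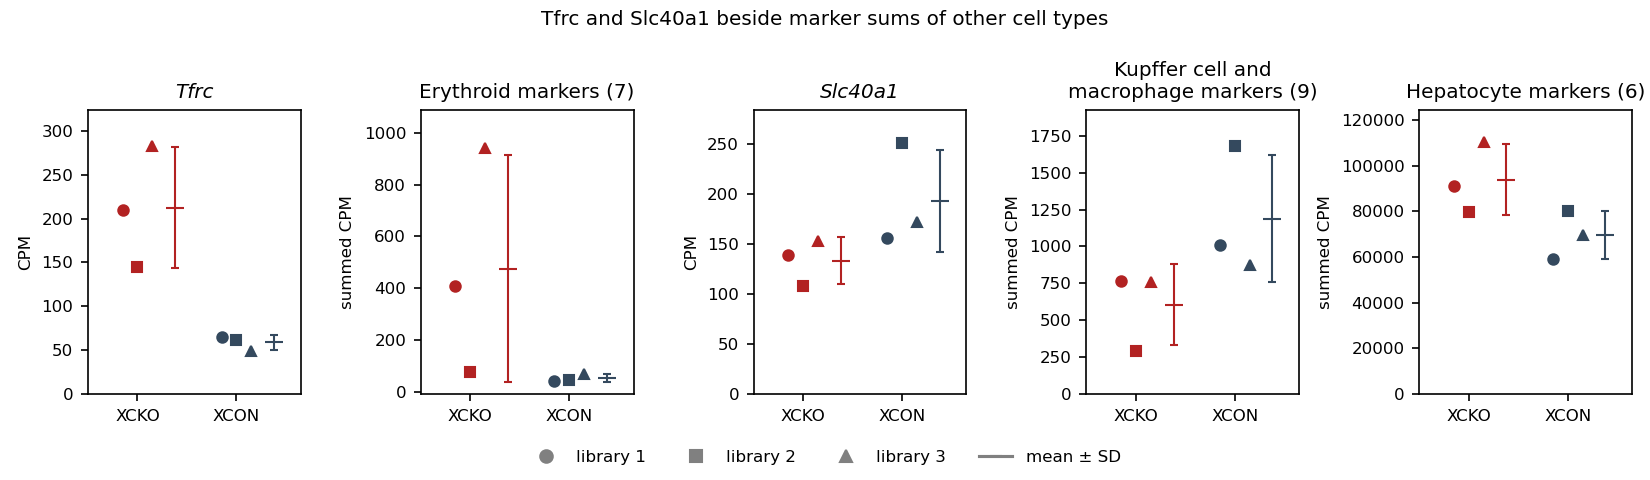
CPM of Tfrc and Slc40a1, and summed CPM of marker lists for erythroid cells, macrophages and hepatocytes (y axes, linear), by group and library, with the mean ± SD of 3 libraries. Erythroid markers stand out in XCKO 1 (407) and XCKO 3 (943), and macrophage markers are lowest in XCKO 2 (292) and highest in XCON 2 (1678).

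In Cp and Hfe the groups overlapped in CPM, and neither gene passed (adjusted p = 0.93 for Cp and 0.46 for Hfe). Cp encodes ceruloplasmin, the copper ferroxidase of plasma (ENSMUSG00000003617, chromosome 3, 19957054 to 20009145, plus strand), and had 2666, 1914 and 2099 CPM in XCKO 1, 2 and 3, against 1852, 2411 and 2569 CPM in XCON 1, 2 and 3. The highest library was an XCKO one and the lowest an XCON one. Its log2 fold change was −0.03 ± 0.22 (SE; 95% interval −0.53 to 0.47). Hfe encodes a relative of major histocompatibility class I proteins that is mutated in human hemochromatosis (ENSMUSG00000006611, chromosome 13, 23702034 to 23710854, minus strand). It had 74.6, 63.3 and 91.0 CPM in XCKO, against 62.4, 72.7 and 64.2 CPM in XCON, a log2 fold change of 0.20 ± 0.17 (SE; 95% interval −0.18 to 0.58).

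Set side by side per length, Tfrc ranked higher and Hamp lower among the members in XCKO than in XCON. In XCKO the mean FPKM was 1430 ± 107 for Fth1, 590 ± 50.3 for Ftl1, 463 ± 162 for Trf, 337 ± 422 for Hamp, 233 ± 42.3 for Cp and 172 ± 16.7 for Tfr2 (SD, n = 3). Below these came Tfrc (34.4 ± 11.8), Hfe (21.4 ± 4.29), Slc40a1 (14.9 ± 2.83) and Slc11a2 (14.2 ± 3.77). In XCKO the ranges of neighbours overlapped for Ftl1 and Trf, Trf and Hamp, Hamp and Cp, Tfrc and Hfe, and Slc40a1 and Slc11a2. In XCON, Hamp had the highest mean (1388 ± 710), overlapping Fth1 (1076 ± 153), followed by Ftl1 (431 ± 54.5), Trf (429 ± 154), Cp (232 ± 40.5) and Tfr2 (89.3 ± 19.0). Tfrc was the lowest in XCON (9.25 ± 1.22), overlapping Slc11a2 (9.84 ± 0.838), below Slc40a1 (20.8 ± 5.20) and Hfe (18.1 ± 1.30). Overlapping neighbours in XCON also included Ftl1 and Trf, and Slc40a1 and Hfe.

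A further 70 genes of iron biology in 8 lists were examined beside the members, and 66 of them were tested. Of these, 5 were higher and 0 lower in edgeR's quasi-likelihood test, which is 7.58% against 9.27% of all genes tested. The called genes were Fgl1, Cebpa, Steap3, Glrx5 and Cisd1. At an unadjusted p under 0.05, 18 were higher and 5 lower, beside 14.3% of all genes tested that were higher and 15.4% that were lower by that measure. The median log2 fold change of the 66 was 0.16, against −0.05 over all genes. DESeq2 called 16 of the 66, 14 higher and 2 lower, where it called 17.8% of all genes tested (9.51% higher and 8.32% lower).

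Among 18 tested genes that control hepcidin through BMP and SMAD signals, 1 was higher, 0 were lower and 17 did not pass, with a median log2 fold change of −0.03 (−0.29 with scaling by library totals, against −0.31 over all genes). The shares of all genes tested were 5.21% called higher and 4.05% called lower. Fgl1, which encodes a secreted liver protein reported in mice to antagonize BMP and lower hepcidin, rose to 716 ± 207 CPM in XCKO, against 296 ± 13.3 CPM in XCON (SD, n = 3 each). Its log2 fold change was 1.27 ± 0.24 (SE; adjusted p = 0.019). The call was lost without XCKO 3 (0.062), XCON 2 (0.051) or XCON 3 (0.056), and without XCKO 1 and 3 together the log2 fold change was 0.73 (adjusted p = 0.2). Transcripts of BMP target genes did not pass. Id1, Atoh8, Smad6, Smad7 and Smad9 all had log2 fold changes below 0. In the whole list of 18 tested genes, 10 were below 0 and 8 above. Id1, a classical target, had 10.9, 3.92 and 6.23 CPM in XCKO 1, 2 and 3, against 6.85, 8.03 and 10.3 CPM in XCON 1, 2 and 3. XCKO 2, the highest XCKO library for Hamp, was the lowest of all for Id1. The groups overlapped for Id1 (log2 fold change −0.26, adjusted p = 0.66). Smad7, a feedback inhibitor, had 12.7 to 12.9 CPM in XCKO and 13.4 to 15.3 CPM in XCON. Its groups did not overlap (log2 fold change −0.15, adjusted p = 0.51). Nor did those of Smad6 (log2 fold change −0.28, adjusted p = 0.34). Atoh8 had a log2 fold change of −0.86 ± 0.33 (SE; adjusted p = 0.13), and its groups overlapped. Smad9, which encodes a BMP-responsive SMAD, had 1.05, 1.71 and 0.346 CPM in XCKO 1, 2 and 3, against 1.46, 10.85 and 8.69 CPM in XCON 1, 2 and 3, so XCON 1 lay within the XCKO range (log2 fold change −2.74 ± 0.80, SE; adjusted p = 0.073). As for Hamp, XCON 1 was the lowest XCON library and XCKO 2 the highest XCKO library. The ligand gene Bmp6 had 4.80 to 8.46 CPM in XCKO and 5.27 to 6.59 CPM in XCON, and Tmprss6, whose protease restrains hepcidin, had 439 to 500 CPM in XCKO and 350 to 540 CPM in XCON.

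In the list of cytokine and ER stress factors that act on Hamp, 1 of 6 was higher and 5 did not pass, with a median log2 fold change of 0.35 (0.08 with scaling by library totals). The share called higher over all genes tested was 5.21%. Cebpa, which encodes a hepatocyte transcription factor that activates Hamp, rose to 509 ± 88.2 CPM in XCKO, against 246 ± 59.2 CPM in XCON (SD, n = 3 each). Its log2 fold change was 1.05 ± 0.23 (SE; adjusted p = 0.03), and 4 of the 6 fits without a library lost the call (without XCKO 2, 0.054; XCKO 3, 0.088; XCON 1, 0.063; XCON 3, 0.067), as did the fit without XCKO 1 and 3 together (0.089). Creb3l3, which encodes the ER-anchored factor CREBH, had 457, 497 and 545 CPM in XCKO 1, 2 and 3, against 255, 392.5 and 303 CPM in XCON 1, 2 and 3. Its groups did not overlap, but it did not pass (log2 fold change 0.66 ± 0.20, SE, adjusted p = 0.072).

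For mitochondrial iron import and iron-sulfur cluster assembly, 2 of 13 genes were higher, 0 were lower and 11 did not pass, with a median log2 fold change of 0.43. Over all genes tested, 5.21% were called higher and 4.05% lower. All 13 fold changes were above 0, or 11 of 13 with scaling by library totals (median 0.17, against −0.31 over all genes). In the main fit, 6910 of the 14873 genes tested had fold changes above 0. In 8 of the 13 the groups did not overlap, with XCKO higher, beside 17.6% of all genes tested. Glrx5, whose glutaredoxin hands on iron-sulfur clusters, had 78.6, 82.4 and 107 CPM in XCKO 1, 2 and 3, against 39.6, 27.6 and 37.7 CPM in XCON 1, 2 and 3. This was a log2 fold change of 1.35 ± 0.19 (SE; adjusted p = 0.01). Cisd1, which encodes the outer-membrane iron-sulfur protein mitoNEET, had 158, 175 and 200 CPM in XCKO, against 90.4, 91.8 and 72.8 CPM in XCON, a log2 fold change of 1.06 ± 0.17 (SE; adjusted p = 0.013). Both passed whichever library was left out, with largest adjusted p-values of 0.038 for Glrx5 and 0.045 for Cisd1. Without XCKO 1 and 3 together Glrx5 passed (0.029) and Cisd1 did not (0.052). The 6 hepatocyte markers also had fold changes above 0, or 5 of 6 with scaling by library totals, with a median of 0.40 and 0 past the test. Of the 6, 2 were higher at an unadjusted p under 0.05, beside 14.3% of all genes tested. The part of these 6 markers in the values of this list was not tested.

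Of 11 tested genes for other uptake and reduction, Steap3, the ferrireductase of endosomes, was higher and 10 did not pass (list median 0.19, or −0.08 with scaling by library totals). Of all genes tested, 5.21% were called higher. Steap3 had 58.9, 47.9 and 47.7 CPM in XCKO 1, 2 and 3, against 33.0, 31.2 and 31.7 CPM in XCON 1, 2 and 3, a log2 fold change of 0.69 ± 0.14 (SE, adjusted p = 0.025). Without XCKO 1, XCKO 3, XCON 1, XCON 2 or XCON 3 the adjusted p was 0.055 to 0.064, and without XCKO 2 it was 0.032. With scaling by library totals the log2 fold change was 0.42 (adjusted p = 0.096), and without XCKO 1 and 3 together it was 0.61 (adjusted p = 0.14). Lactoferrin, the iron-binding protein of neutrophil granules, is encoded by Ltf, which had 6.64, 0 and 15.4 CPM in XCKO 1, 2 and 3, against 0.770, 0.257 and 0.0676 CPM in XCON 1, 2 and 3. Its groups overlapped, it did not pass (log2 fold change 4.34 ± 1.77, SE; adjusted p = 0.17), and the neutrophil markers had the same order in XCKO, with sums of 28.7, 2.56 and 66.7 CPM in XCKO 1, 2 and 3, against 12.9, 5.21 and 2.54 CPM in XCON 1, 2 and 3. The part of neutrophils in the Ltf values was not tested. The IRP system, ferritin loading, export oxidase and heme lists held no called gene. Their members of smallest p were Aco1, which encodes IRP1 (log2 fold change 0.34, adjusted p = 0.23, of 3 genes of the IRP system), and Pcbp1, an iron chaperone for ferritin (0.43, 0.11, of 3 tested genes of ferritin loading and turnover). In the other lists they were Heph, a ferroxidase (−0.30, 0.70, the 1 export oxidase tested), and Flvcr2, a transporter of heme or choline (0.72, 0.056, of 11 heme genes). Within the heme list, Hmox1, which breaks heme down, had 49.1, 16.2 and 47.9 CPM in XCKO 1, 2 and 3, against 57.6, 75.3 and 58.9 CPM in XCON 1, 2 and 3, without overlap (log2 fold change −0.76, adjusted p = 0.24). Like Slc40a1, it was lowest in XCKO 2 and highest in XCON 2, where the macrophage marker sums were 292 CPM (XCKO 2) and 1678 CPM (XCON 2), and the part of macrophages was not tested. The heme scavenger gene Hpx had 10279 to 17780 CPM in XCKO and 6681 to 8661 CPM in XCON, without overlap (log2 fold change 0.84 ± 0.26, SE, adjusted p = 0.075).

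**Figure D4:**
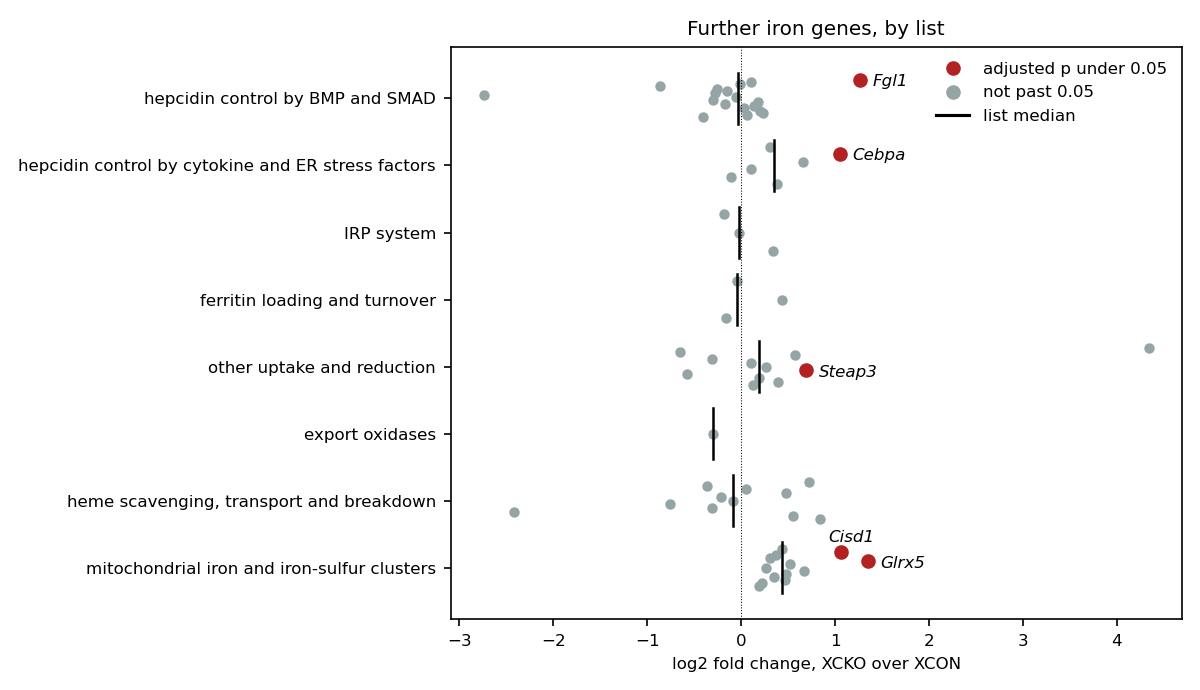
Log2 fold change, XCKO over XCON (x axis), of the further iron genes tested, by list (y axis). Each point is a gene, red where the adjusted p is under 0.05, and black bars are list medians, which run from −0.30 (export oxidases) to 0.43 (mitochondrial iron and iron-sulfur clusters).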

How the data were processed

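RNA-seq read counts per Ensembl gene were deposited for 6 libraries made from Trizol-extracted RNA with a NEBNext Ultra kit, per the labels' protocols. Per the submitters' processing notes, the tool was Bowtie 0.12.2 and mm8 and mm10 are listed as builds, without their roles. The sources used here name neither the read counter nor its use of strand. Of the 10 members, 9 (all but Fth1) had the same start and end in GENCODE M21 (mm10) as in the table. The authors' deposited FPKM values equal counts divided by gene length and a scaled library size. The authors' deposited group means (a signal on a count scale), log2 fold changes and p-values come from a tool that no source names.

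Counts were filtered with filterByExpr, scaled by TMM and tested with edgeR 4.0.16 in R 4.3.3 (robust quasi-likelihood F test on group, Benjamini-Hochberg adjustment over 14873 genes, threshold 0.05). The fit was tested on simulated data. SEs are |log2 fold change| over the root of F, and the biological coefficient of variation was 25.8%. Since no label names an animal per library, the p-values reflect library spread, which may be technical. Alternatives were median-of-ratios and total scaling, other filters, DESeq2 1.42.0, limma 3.58.1 (voom, and log2 FPKM with pseudocounts of 1 and 0.1), a length correction, the replicate number as a block, and left-out libraries.

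Members and lists were chosen with earlier results of these data known. All members are named, and of each further list up to 4 genes past 0.05, or the gene of smallest p, with close relatives of members and the 3 genes most like the member of smallest p by Pearson r of log2 CPM (prior count 2). Other genes beside them (Id1, Atoh8, Smad6, Smad7, Smad9, Bmp6, Tmprss6, Creb3l3, Ltf, Hmox1, Hpx) were chosen after their values were seen. Of the 70 further genes, 4 (Erfe, Ftmt, Cybrd1, Hephl1) failed the filter, and Hjv was matched under an older symbol. Promoter sequences are from RefSeq (GRCm38.p6).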

Additional observations from a re-analysis of the deposited data

How the results depend on the processing

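Over 17 alternative fits, Tfrc and Xbp1 kept their direction and their call, and Fth1, Ftl1, Slc11a2 and Hamp kept their direction without a call, and Tfr2 (called in 9) and Slc40a1 (called in 1) kept their direction. DESeq2 gave Hamp no adjusted p, so that fit is not counted for it. The count of members called was 1 with the replicate block or without XCKO 1 and 3 together, and 1 to 2 with a library left out. The count of further iron genes was 16 with DESeq2, 10 without a filter, 2 with the replicate block, 2 without XCKO 1 and 3, and 2 to 5 with a library left out. Over all genes it was 1378, against 2653 with DESeq2, 2358 with total scaling, 2160 without a filter, 322 with the replicate block, 679 without XCKO 1 and 3, and 309 (without XCKO 3) to 810 with a library left out. Total scaling gave 326 higher and 2032 lower genes, against 775 and 603. The cause of these changes was not tested. Deviations of same-numbered libraries from their group means correlated at 0.055, 0.077 and −0.168, and those of differently numbered libraries at −0.158 to 0.106. With 3 libraries a group, these values cannot decide whether replicate numbers pair the libraries. With the block the calls of Tfr2 (adjusted p = 0.08), Fgl1 (0.054), Steap3 (0.057) and Cisd1 (0.052) were lost, while Tfrc, Cebpa and Glrx5 passed. Signs turned for genes near 0. Trf was −0.22 with total scaling, −0.40 without XCKO 1 and 3, and −0.20 to 0.41 with a library left out. Hfe was −0.08 and −0.04 in the first 2 of these settings. Cp was 0.17 with the length correction, 0.00 on log2 FPKM with either pseudocount, and −0.17 to 0.11 with a library left out. Log2 FPKM moved the median of all genes by 0.11 and 0.13, over a smaller set of genes. With 3 libraries a group, Hamp's interval spans falls and rises, and no difference was detectable at this spread.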
